A study of Mus musculus with 4 samples.

Results

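The genes described here encode 10 enzymes of serine synthesis, one-carbon metabolism and transsulfuration, with asparagine synthetase. They are Phgdh, Psat1, Psph, Shmt1, Shmt2, Mthfd1, Mthfd2, Mthfd1l, Asns and Cth. They were chosen by pathway and found by matching the Ensembl identifiers of the deposited tables to these symbols, and all 10 were present among 20089 genes. The libraries came from HT22 cells, a mouse hippocampal neuronal cell line, with strain C57BL/6 in the labels. There were 4 groups of 1 library each. They were Neat1 knockdown cells (lentivirus aimed at Neat1) under OGD (oxygen and glucose deprivation), control cells (control negative lentivirus) under OGD, knockdown cells in normal culture and control cells in normal culture, where normal culture was DMEM/F12 with 10% FBS. Neat1 is a long noncoding RNA that scaffolds nuclear paraspeckles. All groups had received a lentivirus. The sources used here give neither the length of OGD nor the target sequence of the lentivirus. With 1 library per group there was no replicate check and no test between groups, and every interval below covers counting error only.

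In serine synthesis, Phgdh oxidises a glycolytic intermediate, Psat1 adds the amino group and Psph removes the phosphate to give serine. The serine hydroxymethyltransferases Shmt1, in the cytosol, and Shmt2, in mitochondria, convert serine to glycine and load a carbon unit onto folate. Mthfd2 and Mthfd1l carry that unit through the mitochondrial folate pathway to formate, and the cytosolic enzyme Mthfd1 uses it for purine and thymidylate synthesis. Cth, cystathionine gamma-lyase, makes cysteine in the last step of transsulfuration, which takes its sulfur from methionine and its carbon from serine. Asns makes asparagine, using glutamine. Several of these genes are known targets of ATF4, the transcription factor of the integrated stress response.

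On GRCm38 the serine synthesis genes lie at chr3:98313170-98339990 (Phgdh, ENSMUSG00000053398), chr19:15904678-15947337 (Psat1, ENSMUSG00000024640) and chr5:129765558-129787449 (Psph, ENSMUSG00000029446), all on the minus strand. Shmt1 lies at chr11:60788104-60811718 (ENSMUSG00000020534) and Shmt2 at chr10:127517123-127522444 (ENSMUSG00000025403), both on the minus strand. The folate genes are Mthfd1 at chr12:76255298-76319803 (plus strand, ENSMUSG00000021048), Mthfd2 at chr6:83305691-83325908 (minus strand, ENSMUSG00000005667) and Mthfd1l at chr10:3973118-4167081 (plus strand, ENSMUSG00000040675). Asns lies at chr6:7675169-7693254 (ENSMUSG00000029752) and Cth at chr3:157894248-157925077 (ENSMUSG00000028179), on the minus strand. Reads were counted per gene, without a split by exon or isoform. Exons of Psph, Shmt1, Shmt2 and Mthfd1 share 452, 184, 32 and 37 bases with a gene on the opposite strand (Cct6a, Smcr8, Ndufa4l2 and Gm47525), and the sources used here do not give whether counting used strand.

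The 250 bases upstream of a RefSeq transcription start are shown for 5 of the genes. Of these, 4 (Asns, Mthfd1l, Mthfd2 and Psat1) are shown because they were past 2-fold under OGD in control cells. The fifth, Phgdh, was close to its level in normal culture. The sequences are from RefSeq (GRCm38.p6), read 5′ to 3′ on the gene's strand, and capitals mark matches to 3 motifs searched on both strands. These were TGATGNAA, the core of the C/EBP-ATF element through which ATF4 acts, ACGTG, the core of the hypoxia response element, and TGACGTNA, a cyclic AMP response element. A match to the third motif that has G as its free base also holds the second. The windows lie at chr6:7693210-7693459 (Asns, minus strand), chr10:3972825-3973074 (Mthfd1l, plus strand), chr6:83317605-83317854 (Mthfd2, minus strand), chr19:15925060-15925309 (Psat1, minus strand) and chr3:98339970-98340219 (Phgdh, minus strand). A RefSeq start can differ from the end of the gene span given above. The Mthfd2 and Psat1 windows lie inside those spans, and the Asns and Phgdh windows overlap theirs.
Asns: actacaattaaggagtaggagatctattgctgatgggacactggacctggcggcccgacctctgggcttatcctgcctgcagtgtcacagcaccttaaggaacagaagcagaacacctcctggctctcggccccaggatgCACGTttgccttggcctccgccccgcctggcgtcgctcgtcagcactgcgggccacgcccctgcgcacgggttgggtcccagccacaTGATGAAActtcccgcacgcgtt
Mthfd1l: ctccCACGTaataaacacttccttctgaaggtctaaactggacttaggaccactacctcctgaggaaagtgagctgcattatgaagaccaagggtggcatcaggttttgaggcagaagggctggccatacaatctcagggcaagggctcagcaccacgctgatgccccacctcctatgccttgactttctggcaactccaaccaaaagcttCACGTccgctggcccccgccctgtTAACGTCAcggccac
Mthfd2: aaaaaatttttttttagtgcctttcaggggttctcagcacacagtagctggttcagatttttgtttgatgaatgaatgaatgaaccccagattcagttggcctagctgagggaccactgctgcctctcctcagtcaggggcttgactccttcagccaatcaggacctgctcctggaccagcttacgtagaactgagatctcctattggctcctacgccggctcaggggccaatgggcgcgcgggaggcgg
Psat1: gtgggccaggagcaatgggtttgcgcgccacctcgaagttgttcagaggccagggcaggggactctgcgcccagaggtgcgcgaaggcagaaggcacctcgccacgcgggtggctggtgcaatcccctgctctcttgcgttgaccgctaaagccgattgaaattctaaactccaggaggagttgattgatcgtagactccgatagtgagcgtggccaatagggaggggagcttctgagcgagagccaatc
Phgdh: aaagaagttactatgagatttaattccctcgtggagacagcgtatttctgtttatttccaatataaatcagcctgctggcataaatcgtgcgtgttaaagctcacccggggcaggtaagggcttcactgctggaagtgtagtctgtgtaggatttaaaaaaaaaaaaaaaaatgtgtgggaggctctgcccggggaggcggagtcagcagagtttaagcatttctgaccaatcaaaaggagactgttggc
The table held a promoter for 9 of the 10 genes, and for Psat1 at 2 starts, of which the first is shown. TGATGNAA was found in 1 of the 9, in Asns from position -23, where the base before the start is -1, and in 3.45% of 32851 mouse promoters of this length. ACGTG was found in 3 of the 9 and in 16.6% of all promoters, at -110 in Asns, at -246 and -39 in Mthfd1l, and at -153 in Psph. TGACGTNA was found in 1 of the 9, on the minus strand at -15 in Mthfd1l, and in 2.52% of all promoters. No match in a window says only that these letters are absent from it. For 7 of the 9 genes, bases 21 to 50 after a start lay in an annotated transcript of that gene.

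The libraries held 19066951 reads in knockdown cells under OGD, 17232866 in control cells under OGD, 20764430 in knockdown cells in normal culture and 18596774 in control cells in normal culture. Levels are in CPM, reads scaled to a common library size with TMM factors. The targeted RNA Neat1 is a limited check of the labels. Neat1 stood at 42.1 CPM in knockdown cells and 74.4 CPM in control cells under OGD, 1.77-fold lower (interval 1.61 to 1.94). In normal culture Neat1 stood at 121 CPM in knockdown cells and 193 CPM in control cells, 1.60-fold lower (1.52 to 1.68). The log2 ratio of Neat1 under OGD was -0.81, against -0.61 by total counts and -0.29 by FPKM, and in normal culture -0.68, against -0.70 and -0.77. For the knockdown, 6.59% of tested genes under OGD and 21.1% in normal culture had a lower ratio than Neat1. OGD against normal culture lowered Neat1 more, 2.60-fold in control cells and 2.87-fold in knockdown cells. The control library in normal culture had the highest sum of every marker set below except astrocytes, and for microglia it lay close to knockdown normal. The summed level of 12 neuron markers was 205.5 CPM in knockdown OGD, 81.8 CPM in control OGD, 32.5 CPM in knockdown normal and 1791 CPM in control normal, with at least 20 reads in 11, 7, 5 and 12 of them in that order. Nrgn alone had 21469 reads in control normal. Snap25 and Map2 had more reads in knockdown OGD (819 and 499) than in control normal (277 and 164), and the other neuron markers had fewer. Neurod2 was at 0 in control OGD. The 8 oligodendrocyte markers summed to 104, 34.3, 27.1 and 281 CPM in the same order (Olig2 at 0 in control OGD and knockdown normal). The 8 astrocyte markers summed to 267, 261, 78.6 and 193 CPM, with Gfap and Aqp4 at 0 in control OGD and S100b at 0 in knockdown normal. The 6 microglia markers summed to 21.4, 18.3, 64.0 and 70.7 CPM, with Aif1 at 0 in every library but control normal, and the 4 endothelium markers to 8.58, 5.79, 7.96 and 27.6 CPM, with Cldn5 at 0 in control OGD. The 3 red blood cell markers summed to 3.93, 0.39, 0.279 and 30.7 CPM. The 3 genes annotated over ribosomal RNA repeats took 0.341%, 4.78%, 4.32% and 1.81% of reads in the same order, and the 13 mitochondrial mRNAs 1.9%, 1.74%, 3.18% and 3.33%. The part of these differences in the results below was not tested, and values under OGD in control cells are also summarised against the knockdown library in normal culture. The knockdown comparison in normal culture and the differences of OGD ratios rest on the control library and have no such alternative. In bulk RNA, fewer cells that express a gene and less RNA per cell cannot be told apart.

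The 10 enzyme genes together took 0.218% of reads in knockdown OGD, 0.281% in control OGD, 0.236% in knockdown normal and 0.200% in control normal. Their summed level was 2122, 3151, 2282 and 1895 CPM in that order, so it was highest in control cells under OGD and lowest in control cells in normal culture. Compared per length, in the deposited FPKM, Phgdh was the highest of the 10 in every library, at 447.84 FPKM in knockdown OGD, 660.46 FPKM in control OGD, 819.82 FPKM in knockdown normal and 680.1 FPKM in control normal. It ranked between 248 and 357 among all genes of a library. Cth was the lowest of the 10 in every library, at 23.19, 13.05, 4.36 and 1.87 FPKM in the same order. In control cells in normal culture Shmt2 (207.03 FPKM), Psph (201.72 FPKM), Psat1 (147.64 FPKM) and Asns (121.77 FPKM) followed Phgdh, and Shmt1 (40.84 FPKM), Mthfd2 (33.92 FPKM), Mthfd1 (29.49 FPKM) and Mthfd1l (22.67 FPKM) were lower. Under OGD the order by FPKM differed. In control cells Asns came second at 343.11 FPKM and Mthfd2 stood at 131.84 FPKM, above Shmt1 at 59.65 FPKM. By CPM per kilobase of all annotated exons, Mthfd2 was already above Shmt1 in control cells in normal culture (12.4 and 11.6). By that measure Psat1 (56.4) and Asns (51.0) stood above Psph (33.0) there, and Shmt1 was the lowest but for Cth. In control cells under OGD Asns came second by that measure also, at 182 against 178 for Shmt2.

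**Figure D1:**
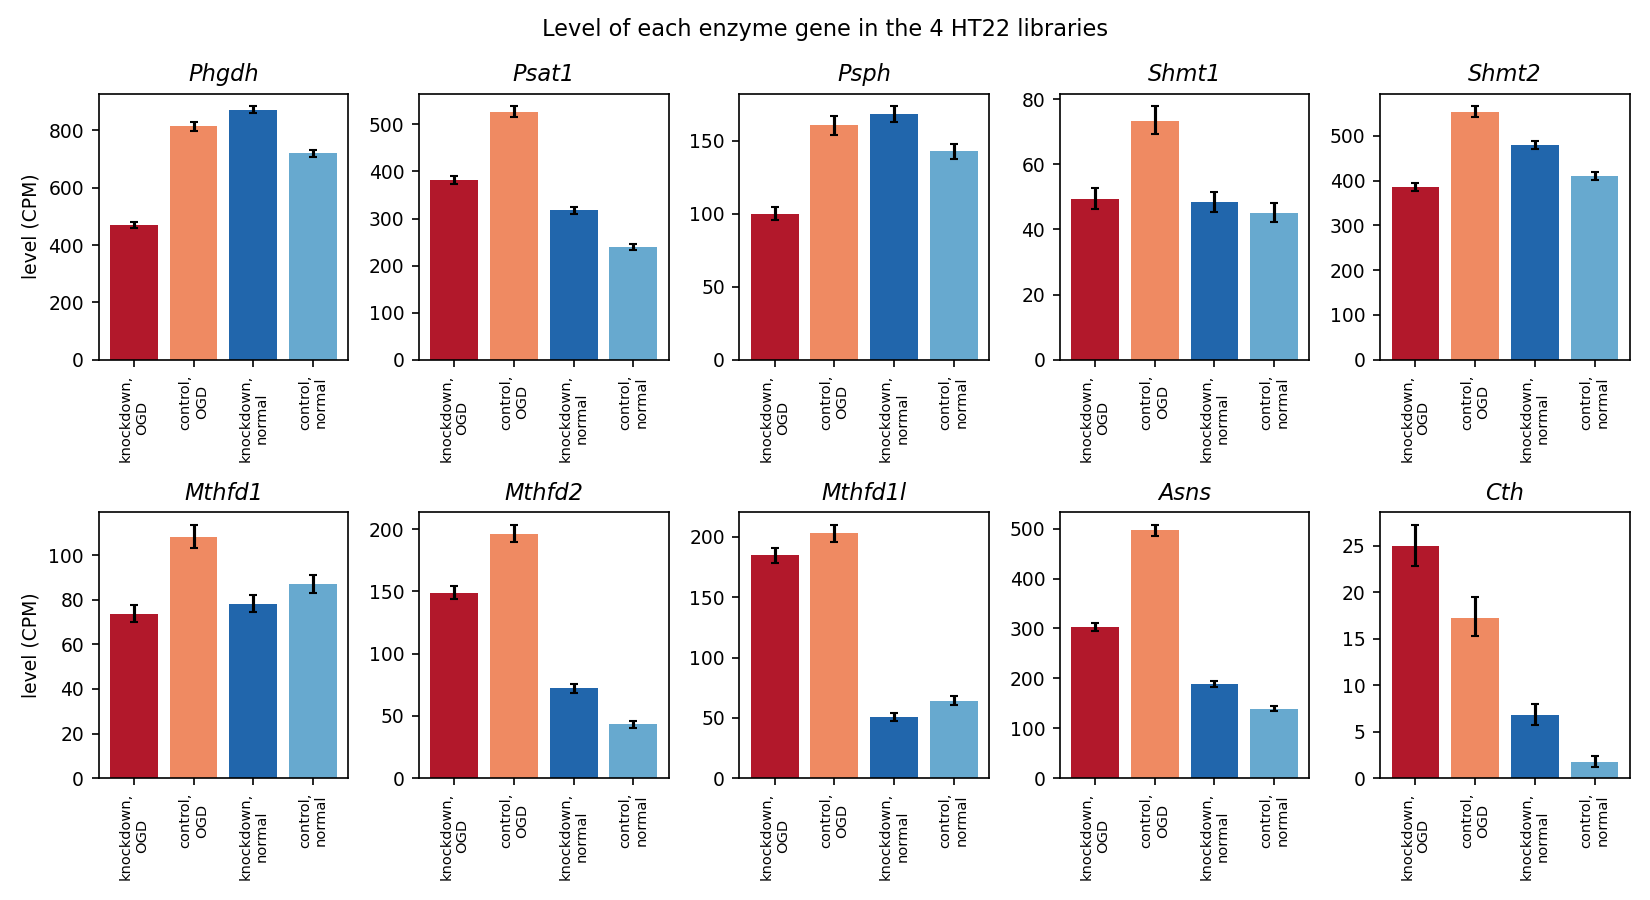
Level in CPM of each of the 10 enzyme genes in the 4 libraries (1 bar per library, knockdown OGD, control OGD, knockdown normal and control normal from left to right). Error bars are exact Poisson 95% intervals and cover counting error only. Psat1, Mthfd2, Mthfd1l, Asns and Cth are higher in both OGD libraries than in both normal libraries. Phgdh (470 CPM), Psph, Shmt2 and Mthfd1 are lowest in knockdown OGD.

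OGD was compared with normal culture in control cells first. All 10 enzyme genes had a log2 ratio above 0, against 44.6% of the 14101 genes that passed the floor of 20 reads in either library, as all 10 did. At least 2-fold higher were 5 of them (Psat1, Mthfd2, Mthfd1l, Asns and Cth), against 9.36% of all genes, and 0 were at least 2-fold lower, against 22.2% of all genes. Their median log2 ratio was 0.91, beside -0.11 over all genes. Log2 ratios here have 0.5 CPM added, which understates low genes, and folds have none. By total counts without TMM the median of all genes was lower by 0.23, 8 of the 10 were above 0 and 4 were past 2-fold, with Psat1 at 0.89.

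Within serine synthesis the enzymes differed. Psat1 had 8110 reads (527 CPM) in control OGD and 4703 reads (240 CPM) in control normal, 2.20-fold higher (2.12 to 2.28). Phgdh, the first enzyme, had 12518 reads (814 CPM) in control OGD and 14128 reads (721 CPM) in control normal, a fold of 1.13 (1.10 to 1.16). Psph had 160 CPM in control OGD and 143 CPM in control normal, a fold of 1.12 (1.07 to 1.19). By total counts Phgdh and Psph lay on the other side of 0, at log2 ratios of -0.06 and -0.07. Cct6a, which overlaps Psph, had 4500 reads in control OGD and 5355 in control normal.

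Among the folate enzymes, Mthfd2 and Mthfd1l were past 2-fold and Mthfd1 was not. Mthfd2, the mitochondrial dehydrogenase, had 3021 reads (196 CPM) in control OGD and 845 reads (43.1 CPM) in control normal, 4.56-fold higher (4.22 to 4.92). Mthfd1l, the mitochondrial formate ligase, had 3122 reads (203 CPM) in control OGD and 1257 reads (64.1 CPM) in control normal, 3.17-fold higher (2.96 to 3.38). The cytosolic Mthfd1 had 108 CPM in control OGD and 87.1 CPM in control normal, a fold of 1.24 (1.16 to 1.33). Mthfd2l, a mitochondrial paralog of Mthfd2 outside the 10, had 13.6 CPM in control OGD and 28.1 CPM in control normal, a log2 ratio of -1.02. Of the hydroxymethyltransferases, the cytosolic Shmt1 had 73.5 CPM in control OGD and 45.2 CPM in control normal (1.63-fold, 1.49 to 1.78), and the mitochondrial Shmt2 had 554 CPM in control OGD and 411 CPM in control normal (1.35-fold, 1.31 to 1.39).

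Asns, whose upstream window held the C/EBP-ATF core, had 7643 reads (497 CPM) in control OGD and 2733 reads (139 CPM) in control normal, 3.56-fold higher (3.41 to 3.73). Cth had the largest ratio of the 10 and the fewest reads, 266 (17.3 CPM) in control OGD and 34 (1.73 CPM) in control normal, 9.97-fold higher (6.96 to 14.7). Against the knockdown library in normal culture the control OGD library was at least 2-fold higher in 4 of the 10, against 13.1% of 13269 genes, with log2 ratios of 1.44 for Mthfd2, 1.99 for Mthfd1l, 1.39 for Asns and 1.29 for Cth. Psat1 stood at 0.73 in that comparison, Phgdh at -0.10 and Psph at -0.07, and the median was 0.66, beside -0.05 over all genes. For Cth the log2 ratio was thus 2.99 against the control library and 1.29 against the knockdown library in normal culture. The control OGD and knockdown normal libraries differ in lentivirus as well as in culture, so a ratio between them holds both differences.

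In knockdown cells, OGD was set against normal culture, and 3 of the 10 genes (Mthfd1l, Cth and Mthfd2) were at least 2-fold higher, against 19.1% of 14071 genes. None was at least 2-fold lower (0 of 10), against 16.9% of all genes. The median log2 ratio was 0.15, beside 0.00 over all genes. Mthfd1l had 3616 reads (185 CPM) in knockdown OGD and 1086 reads (50.6 CPM) in knockdown normal, 3.65-fold higher (3.41 to 3.91). Cth had 489 reads (25.0 CPM) in knockdown OGD and 146 reads (6.80 CPM) in knockdown normal, 3.67-fold higher (3.05 to 4.45). Mthfd2 had 149 CPM in knockdown OGD and 72.2 CPM in knockdown normal, 2.06-fold higher (1.94 to 2.19), an interval that spans the 2-fold size. Asns was 1.60-fold higher (1.54 to 1.67), at 303 CPM in knockdown OGD and 189 CPM in knockdown normal, and Psat1 1.20-fold higher (1.16 to 1.24), at 381 and 317 CPM in that order.

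The first and last enzymes of serine synthesis had the lowest ratios in knockdown cells. Phgdh had 9203 reads (470 CPM) in knockdown OGD and 18730 reads (872 CPM) in knockdown normal, 1.86-fold lower (1.81 to 1.90). Psph had 1957 reads (99.9 CPM) in knockdown OGD and 3612 reads (168 CPM) in knockdown normal, 1.68-fold lower (1.59 to 1.78), while the overlapping Cct6a had 5530 and 6658 reads in that order. Shmt2 was 1.24-fold lower (1.21 to 1.28), at 386 CPM in knockdown OGD and 480 CPM in knockdown normal. Shmt1 (49.4 CPM in knockdown OGD, 48.4 CPM in knockdown normal) and Mthfd1 (73.6 and 78.1 CPM) had folds whose counting intervals included 1, 1.02 higher (0.935 to 1.12) and 1.06 lower (0.988 to 1.14).

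**Figure D2:**
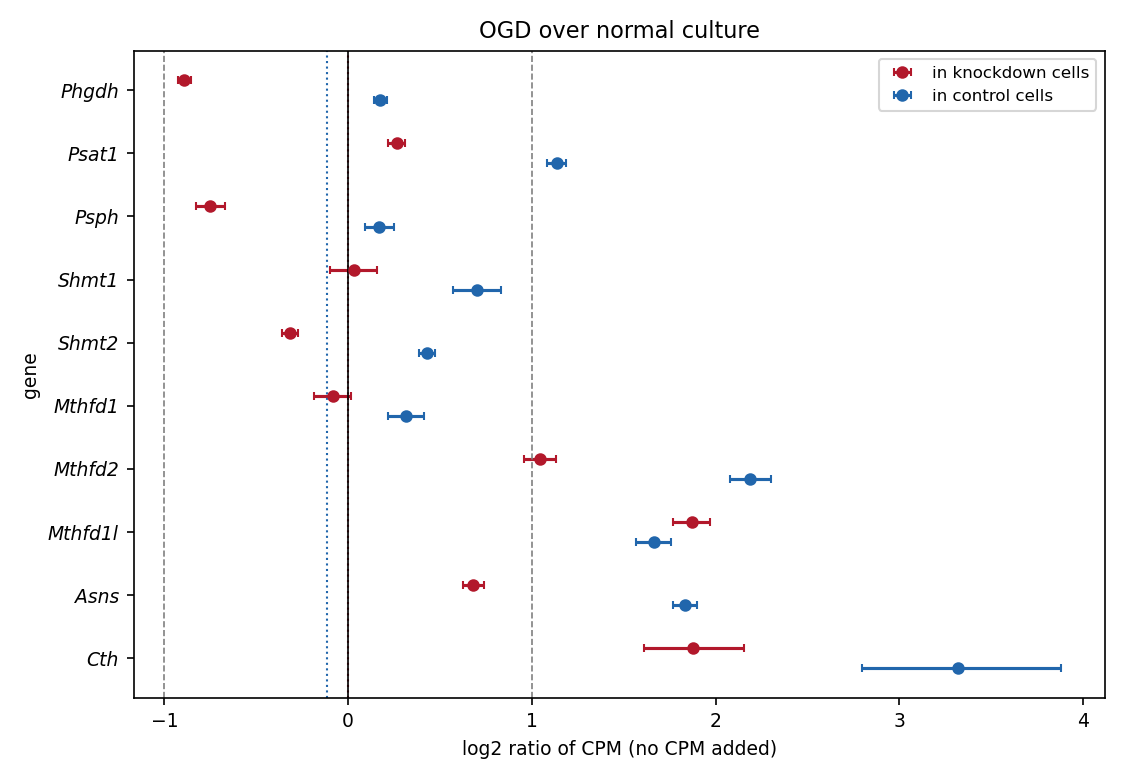
Log2 ratio of CPM, OGD over normal culture, for each enzyme gene in knockdown cells (red) and control cells (blue), with 95% counting intervals. Dashed lines mark 2-fold and dotted lines the median of all genes in each comparison. The red point lies left of the blue one for every gene but Mthfd1l, and Phgdh, Psph, Shmt2 and Mthfd1 lie on opposite sides of 0 (by total counts Shmt2 and Mthfd1). The interval of Mthfd1 in knockdown cells spans 0.

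The knockdown was compared with the control lentivirus under OGD. Here 9 of the 10 genes had a log2 ratio below 0, against 50.1% of 13388 genes, and Cth was above it. By the 2-fold size, 0 were higher and 0 lower, against 10.7% and 4.23% of all genes. The median of the 10 was -0.54, beside 0.00 over all genes, whose quartiles were -0.31 and 0.40. By total counts the median of all genes was higher by 0.19, the median of the 10 was -0.34, and 8 were below 0, with Mthfd1l at 0.07. Phgdh stood furthest below, at 470 CPM in knockdown OGD and 814 CPM in control OGD, 1.73-fold lower (1.69 to 1.78). Asns followed at 303 CPM in knockdown OGD and 497 CPM in control OGD, 1.64-fold lower (1.58 to 1.70), and Psph at 99.9 CPM in knockdown OGD and 160 CPM in control OGD, 1.61-fold lower (1.51 to 1.70). Shmt1, Mthfd1, Shmt2, Psat1 and Mthfd2 were between 1.49-fold and 1.32-fold lower. Mthfd1l was 1.10-fold lower (1.05 to 1.15), at 185 CPM in knockdown OGD and 203 CPM in control OGD. Cth was 1.44-fold higher (1.24 to 1.68), at 25.0 CPM in knockdown OGD and 17.3 CPM in control OGD.

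In normal culture the knockdown library had higher levels of 8 of the 10 genes, against 48.1% of 14554 genes with a log2 ratio above 0. Of the 10, 1 (Cth) was at least 2-fold higher and 0 lower, against 6.25% and 16.3% of all genes. The median was 0.26, beside -0.03 over all genes, whose quartiles were -0.52 and 0.31. Cth had 146 reads (6.80 CPM) in knockdown normal and 34 reads (1.73 CPM) in control normal, 3.92-fold higher (2.68 to 5.87). By the deposited FPKM its log2 ratio was 1.04, against 1.71 by CPM. Mthfd2 was 1.68-fold higher (1.54 to 1.83), at 72.2 CPM in knockdown normal and 43.1 CPM in control normal. Asns, Psat1, Phgdh, Psph and Shmt2 were between 1.36-fold and 1.17-fold higher, and Shmt1 was at a fold of 1.07 (0.978 to 1.17). Lower were Mthfd1l, 1.27-fold (1.17 to 1.38), and Mthfd1, 1.11-fold (1.04 to 1.19). This comparison rests on the control library whose neuron markers summed to 1791 CPM.

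**Figure D3:**
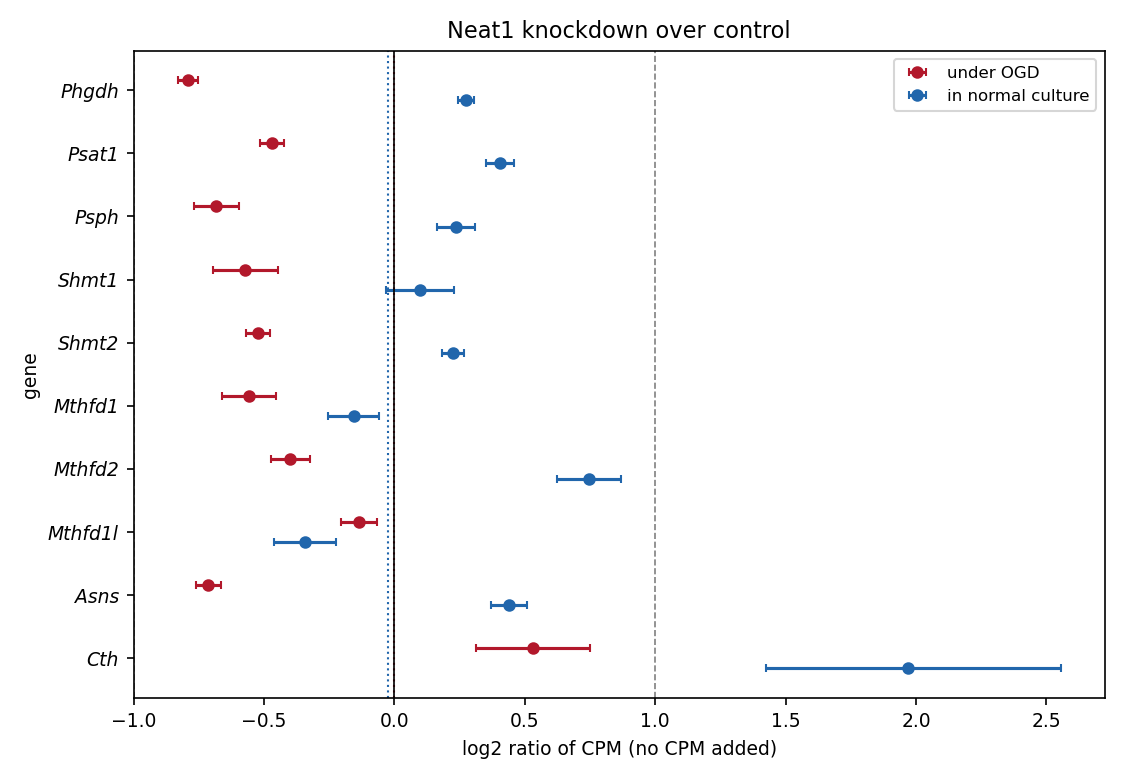
Log2 ratio of CPM, Neat1 knockdown over control, for each enzyme gene under OGD (red) and in normal culture (blue), with 95% counting intervals. Dashed lines mark 2-fold and dotted lines the median of all genes. Under OGD all genes but Cth lie left of 0 (Mthfd1l at 0.07 by total counts), and in normal culture all but Mthfd1 and Mthfd1l lie right of it.

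The OGD log2 ratio in knockdown cells minus that in control cells was below 0 for 9 of the 10 genes, against 52% of 13086 genes, and at or below -1 for 4, against 7.15% of all genes. The count of 4 (Asns, Mthfd2, Phgdh and Cth) holds by TMM scaling only. By total counts or FPKM these genes lay above -1. The median of the 10 was -0.89, beside -0.04 over all genes. The difference uses all 4 libraries and equals the knockdown ratio under OGD minus that in normal culture, so it holds no evidence beyond those comparisons. It was -1.15 (-1.24 to -1.07) for Asns, -1.14 for Mthfd2 (-1.29 to -1.0), -1.07 for Phgdh (-1.12 to -1.02) and -1.19 for Cth. The intervals belong to the difference with no CPM added, which for Cth was -1.44 (-2.02 to -0.86). Psph stood at -0.92, Psat1 at -0.87, Shmt2 at -0.75, Shmt1 at -0.66 and Mthfd1 at -0.40. Mthfd1l, at 0.20 (0.07 to 0.34), was the exception. No test of these differences was possible with 1 library per group.

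Levels of mitochondrial and cytosolic isozymes were compared per length within each library. The ratio of Mthfd1l to Mthfd1 FPKM was 2.54 in knockdown OGD (counting interval 2.39 to 2.70), 1.93 in control OGD (1.82 to 2.05), 0.671 in knockdown normal and 0.769 in control normal. The mitochondrial ligase was thus above the cytosolic enzyme in both OGD libraries and below it in both normal libraries. For Mthfd2 over Mthfd1 the ratio was 4.95 in knockdown OGD, 4.24 in control OGD, 2.08 in knockdown normal and 1.15 in control normal. For Shmt2 over Shmt1 it was 4.19, 3.97, 4.89 and 5.07 in the same order, lower in both OGD libraries. With reads per kilobase of all annotated exons in place of FPKM, the Mthfd2 ratio was 2.58, 2.31, 1.18 and 0.631 in the same order, so in control cells in normal culture it lay on the other side of 1. The Shmt ratio was 9.75, 9.43, 12.4 and 11.4, and the Mthfd1l ratio 2.51, 1.88, 0.648 and 0.738.

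**Figure D4:**
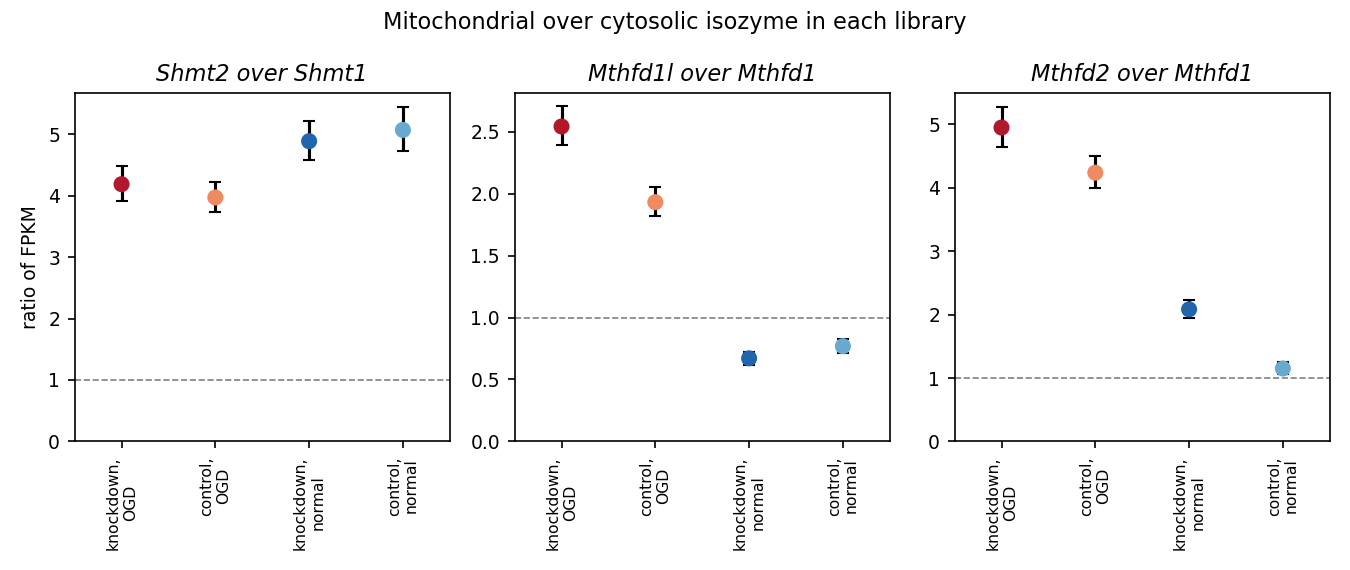
Ratio of the deposited FPKM of a mitochondrial enzyme gene to that of its cytosolic counterpart in each library, with 95% counting intervals, and a dashed line at 1. Both folate pathway ratios are higher in the OGD libraries than in the normal ones, and the ratio of Shmt2 to Shmt1 is lower, at 4.19 and 3.97 against 4.89 and 5.07.

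Neighbouring genes were described by 4 lists, with the members counted at the same 2-fold size. Genes of a list are named by their ratio among those with at least 100 reads, so a gene with fewer reads can lie further out. Against the knockdown library in normal culture, the control OGD medians were 1.44 for the ATF4-pathway factors (9 higher, 1 lower of 14), 0.40 for amino acid synthesis (4 higher, 0 lower of 13), -0.46 for the folate list (2 higher, 3 lower of 19) and -0.10 for the methionine list (3 higher, 1 lower of 12). Over all genes of that comparison, 1734 of 13269 were higher (13.1%) and 2135 were lower. The ATF4-pathway factors, 14 genes of the integrated stress response, had a median log2 ratio under OGD of 0.96 in knockdown cells (7 higher, 1 lower) and 1.82 in control cells (9 higher, 1 lower). The shares of all genes higher and lower were 19.1% and 16.9% in knockdown cells and 9.36% and 22.2% in control cells. Atf4 itself had 1307 CPM in knockdown OGD, 1733 CPM in control OGD, 544.5 CPM in knockdown normal and 430.6 CPM in control normal. The log2 ratio under OGD in knockdown and control cells was 2.08 and 2.74 for Ddit3, which encodes CHOP, 3.56 and 3.19 for Atf3, and 3.20 and 2.92 for Ppp1r15a, a phosphatase subunit that restores translation. For the knockdown under OGD the list's median was -0.13, with 0 past 2-fold (0.07 and 1 higher by total counts), and its widest ratios at 100 reads or more were Atf5 at -0.96, Atf3 at 0.86 and Ddit3 at -0.85. In normal culture the median was 0.22, again with 0 past 2-fold, led by Nupr1 at 0.99, Trib3 at 0.82 and Eif2ak2 at 0.68. For the knockdown, 10.7% of all genes were higher and 4.23% lower under OGD, and 6.25% and 16.3% in normal culture.

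The list of other amino acid synthesis genes had a median of 0.34 under OGD in knockdown cells (2 higher, 1 lower of 13, against 19.1% and 16.9% of all genes). In control cells the median was 0.55 (5 higher, 1 lower of 14, against 9.36% and 22.2% of all genes). In control cells Ass1, of arginine synthesis, stood at 1.47, Aldh18a1, of proline synthesis, at 1.41 and Gpt2, which makes alanine, at 1.40. In knockdown cells Ass1 stood at 1.96 and Pycr1, of proline synthesis, at 1.40. For the knockdown the median was -0.34 under OGD (0 higher, 1 lower of 13, against 10.7% and 4.23% of all genes). In normal culture the median was 0.04 (0 higher, 1 lower of 14, against 6.25% and 16.3% of all genes). Under OGD Pycr1 stood at -0.63 and Aldh18a1 at -0.59, and in normal culture Pycr1 at -0.83, Gpt2 at 0.57 and the branched-chain aminotransferase Bcat1 at 0.43.

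The folate cycle and glycine cleavage genes outside the 10 had a median under OGD of -0.86 in knockdown cells (2 higher, 9 lower of 20, against 19.1% and 16.9% of all genes). In control cells it was -0.16 (1 higher, 5 lower of 19, against 9.36% and 22.2% of all genes), beside -0.11 over all genes. Fpgs, which retains folate in the cell by adding glutamates, stood at -2.32 in knockdown cells and -1.13 in control cells. Gcsh, a carrier protein of glycine cleavage, stood at -1.90 in knockdown cells, and the mitochondrial folate carrier Slc25a32 at -2.23 in control cells. Mthfd2l was at -1.77 in knockdown cells. The exception in control cells was Aldh1l2, a mitochondrial formyltetrahydrofolate dehydrogenase, with 219 CPM in control OGD and 57.5 CPM in control normal (1.92). For the knockdown under OGD the median was -0.34 (1 higher, 2 lower of 19, against 10.7% and 4.23% of all genes). Gcsh stood at -1.21 there, the folate carrier Slc19a1 at -1.17 and Mthfd2l at -0.84. In normal culture the median was -0.04 (0 past 2-fold of 19, against 6.25% higher and 16.3% lower of all genes). Mtfmt stood at 0.54 there, Slc19a1 at 0.51 and Gcsh at -0.44.

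For the methionine cycle, cysteine and glutathione genes the medians lay between -0.06 and 0.11 in the 4 comparisons, and between -0.25 and 0.26 by total counts. They were 0.11 under OGD in knockdown cells (2 higher, 2 lower of 13, against 19.1% and 16.9% of all genes) and -0.02 in control cells (1 higher, 1 lower, against 9.36% and 22.2%). For the knockdown they were 0.06 under OGD (2 higher, 0 lower, against 10.7% and 4.23%) and -0.06 in normal culture (0 higher, 2 lower, against 6.25% and 16.3%). Mpst, a sulfurtransferase of cysteine breakdown, stood at 2.11 and Mtap, of methionine salvage, at -1.45 under OGD in knockdown cells. Mat2a, which makes S-adenosylmethionine, stood at -1.14 there and at -0.95 for the knockdown under OGD, where Csad, of taurine synthesis, stood at 1.16 and Adi1, also of methionine salvage, at -0.61. In control cells the widest under OGD at 100 reads or more were Adi1 at 1.10, Mtap at -0.95 and Mpst at 0.62. For the knockdown in normal culture they were Mpst at -1.36, Ahcyl2 at -0.89 and Gclm, a subunit of the first enzyme of glutathione synthesis, at 0.60. Cbs, the enzyme just before Cth in transsulfuration, had 11 reads in knockdown OGD, 0 in control OGD, 0 in knockdown normal and 1 in control normal, while Cth had 489, 266, 146 and 34 reads in the same order.

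**Figure D5:**
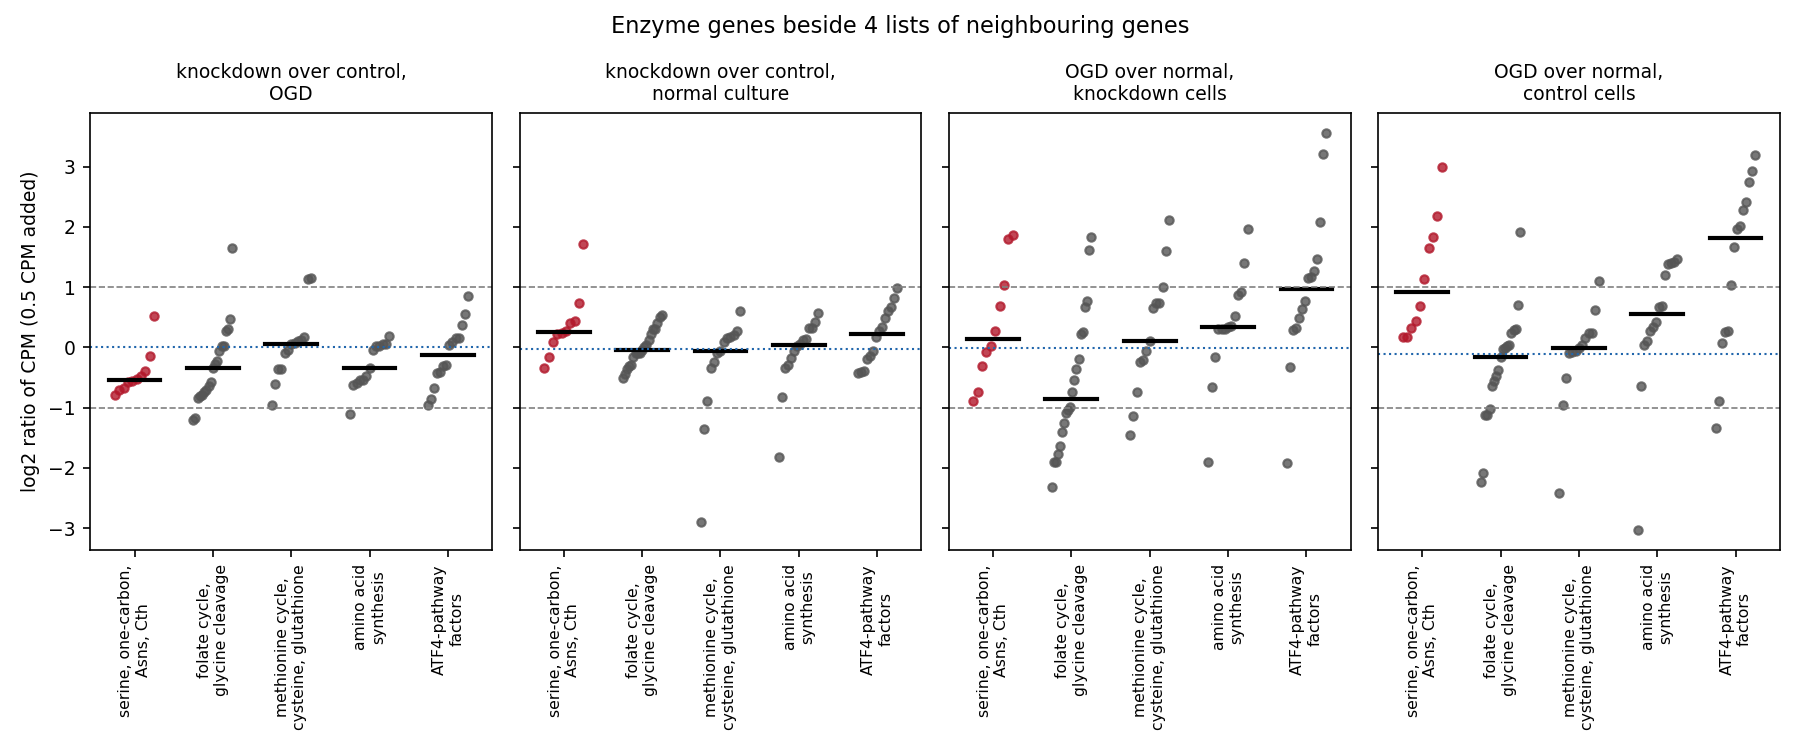
Log2 ratio of CPM with 0.5 CPM added in the 4 comparisons, for the 10 enzyme genes (red) and 4 lists of neighbouring genes (grey), each point a gene past the floor of 20 reads and each bar a list's median. Dashed lines mark 2-fold and dotted lines the median of all genes. Under OGD in control cells the medians are 0.91 for the enzyme genes, 1.82 for the ATF4-pathway factors and -0.16 for the other folate genes.

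The pattern of the 10 genes over the 4 libraries, the median of their centred log2 levels, was 0.01 in knockdown OGD, 0.52 in control OGD, -0.14 in knockdown normal and -0.39 in control normal. Psat1 and Shmt1 were closest to it, each at a root mean square distance of 0.10, and Cth was furthest at 1.13. The 5 other genes nearest to it over these 4 libraries were Supt6, Zfp598, Cdca4, Slc19a2 and H2-Q4, at distances of 0.024 to 0.051. Over 4 libraries this likeness is a description, with no test.

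The authors' deposited table for OGD in control cells marked Mthfd2, Asns, Cth and Mthfd1l as up, with adjusted p-values of 0.398, 0.644, 0.975 and 1 from its unreplicated model. In knockdown cells the authors' deposited table marked Mthfd1l as up, and for the knockdown under OGD it marked Phgdh and Asns as down, all with an adjusted p of 1. For the knockdown in normal culture it marked 0 of the 10. Over all genes, up and down together, the authors marked 814 of 18879 for OGD in control cells and 330 of 17951 in knockdown cells. For the knockdown they marked 372 of 18502 under OGD and 919 of 18309 in normal culture. The rule behind the marks in the authors' deposited table was not examined, and the lowest adjusted p of any of the 10 genes in it was 0.398.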

How the data were processed

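Total RNA of 4 HT22 cultures was sequenced, 1 library per group. Isolation was with TRIzol, followed by fragmentation and cDNA synthesis with deoxy-UTP in 1 strand, per the labels' protocols. The submitters' processing notes name TopHat2 and mm10; the counter, annotation and use of strand were not given in these sources. The authors deposited 4 pairwise tables. Per the file headers these hold size-factor scaled mean counts (a signal per library), p-values and adjusted p-values. They also hold columns named only by a sample number, whose deposited values were read as FPKM. Value columns without a sample numbered 0.

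From the deposited signal whole reads could be recovered (100% whole at a tolerance of 1e-06), and the plan for counts was applied to them. Factors came from edgeR 4.0.16 in R 4.3.3 (TMM: 1.03 in knockdown OGD, 0.893 in control OGD, 1.03 in knockdown normal, 1.05 in control normal), and the alternative median-of-ratios factors from DESeq2 1.42.0. The other steps ran in Python 3.11.15 with scipy 1.17.1, pandas 2.3.3 and numpy 2.4.6. Only the log2 ratio and its interval were tested on simulated data. These were Poisson counts without TMM scaling, the model behind the interval, so they could not show errors beyond counting. Ratios used 0.5 CPM added and a floor of 20 reads in the library with more. Intervals (95%) are exact conditional binomial for ratios and exact Poisson for levels. PCR reads without molecular identifiers are not independent molecules, so they cover counting error only. Names came from GENCODE M21 (GRCm38), which matched 19950 of 20089 genes.

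The members and lists were chosen with earlier results of these data known. All 10 members were named, with the 3 genes of each list that had the largest absolute log2 ratio in each comparison among those with 100 reads or more, and the 5 genes nearest in pattern. Of the amino acid synthesis list, 1 gene that the rule names is not reported here. Atf4, Cbs and, in control cells, Mthfd2l were named after their values were seen. Alternatives were other scalings, other amounts of CPM added, other floors, FPKM, a 1.5-fold size and another library as reference.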

Additional observations from a re-analysis of the deposited data

Results flagged for a closer look

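Some enzyme genes had ratios of opposite sign in the knockdown and control cells, or in the 2 cultures, under the same contrast, with counting intervals away from 0 in both. For OGD over normal culture these were 3 genes: Phgdh at -0.89 in knockdown cells and 0.18 in control cells, Psph at -0.75 and 0.17, and Shmt2 at -0.31 and 0.43. For the knockdown over control these were 6 genes: Phgdh at -0.79 under OGD and 0.28 in normal culture, Psat1 at -0.47 and 0.40, Psph at -0.68 and 0.24, Shmt2 at -0.52 and 0.22, Mthfd2 at -0.40 and 0.74, and Asns at -0.71 and 0.44. The rule was applied to the enzyme genes only, so the share of all genes that meet it is not known. Neither count can therefore be called unusual. Both contrasts have the same arithmetic difference, so the lists are not separate evidence. The differences were not tested, because each group held 1 library. For Phgdh and Psph the OGD ratio in control cells is below 0 by total counts, so the opposite signs there hold by TMM scaling and not by total counts.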

How the results depend on the processing

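Of 370 values of single enzyme genes under another setting, 357 kept their direction and 13 did not, 0 of them past 2-fold in the main comparison. Those that turned were Phgdh under OGD in control cells (-0.06 by total counts, -0.04 by FPKM, -0.02 by total counts without the repeat genes, -0.10 against the knockdown library), Psph there (-0.07, -0.23, -0.03 and -0.07), Mthfd1l for the knockdown under OGD (0.07, 0.04 and 0.00024) and Shmt1 under OGD in knockdown cells (-0.09 by FPKM, -0.04 by total counts without the repeat genes). With a 1.5-fold size, 2 enzyme genes were higher for the knockdown in normal culture (13.4% of all genes), 3 lower for it under OGD (12.1%) and 2 lower under OGD in knockdown cells (28.2%). The median difference of OGD ratios was -0.66 by total counts and -0.57 by FPKM. By reads per kilobase the ratio of Shmt2 to Shmt1 was 9.75, 9.43, 12.4 and 11.4, and of Mthfd2 to Mthfd1 2.58, 2.31, 1.18 and 0.631 in knockdown OGD, control OGD, knockdown normal and control normal.

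Among all genes past 2-fold, the share higher was 71.7% for the knockdown under OGD (82.3% by total counts, 79.2% without the repeat genes) and 29.7% under OGD in control cells (18.5% and 20.4%). For the knockdown under OGD 1437 genes were higher and 566 lower (535 and 263 with 2 CPM added, 456 and 267 at 100 reads, 2532 and 1617 at 1.5-fold, 901 lower with no floor, 327 lower by FPKM). In normal culture 910 were higher and 2374 lower (283 higher with 2 CPM, 364 and 1297 at 100 reads, 1947 higher at 1.5-fold). Under OGD 2682 were higher and 2375 lower in knockdown cells (1635 higher at 100 reads, 1542 lower with 2 CPM, 4062 and 3973 at 1.5-fold), and 1320 and 3125 in control cells (866 higher by total counts, 836 by FPKM, 2777 at 1.5-fold, 1923 lower at 100 reads). TMM factors without the control library in normal culture, totals without the repeat genes and the knockdown library as reference for the lists were chosen after seeing the data. The causes of these shifts were not tested. No library could be left out, and no paired analysis was possible because each group held 1 library. Depth limits Cth most, with 34 reads in control normal.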
